A study of Saccharomyces cerevisiae with 6 samples.

Results

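Nascent transcription, relative to each array's median, was highest in cln3Δ yeast alone at 52 array spots, out of 5953 spots in use and 6144 on each membrane. They were selected on measured values. A spot's level is the log2 of its run-on signal over the genomic DNA signal of the same membrane, with the median of each array set to 0, after run-on signals were raised to a floor, the smallest signal on that array among spots whose S/N (signal over noise) was 2 or more. A spot was taken where S/N was at least 2 on all 3 cln3Δ arrays and the mean level in cln3Δ stood at least 0.6 above the highest mean of the other 5 strains. That distance is called the gap here. Since each array's median is set to 0, a difference in total transcription between strains cannot be seen. The 191 spots left out lacked a genomic DNA signal above 0 on some membrane.

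The series measured Saccharomyces cerevisiae strains of different cell volume in exponential growth in YPD, a rich medium, with 3 run-on arrays per strain and 18 in all. The groups were a cln3Δ mutant, a whi5Δ mutant, and wild types of 4 ploidies, which were a diploid (WT 2N, PY4993), a triploid (WT 3N, PY4997), a tetraploid (WT 4N, PY4996) and a haploid (WT N, BY4741). For cln3Δ the title, description and strain label name the mutant, but the source label names wild-type cells in YPD with KCl at 0.6 M. The title was followed, so strain and medium cannot be told apart in anything said of cln3Δ below. No file ties a spot to a gene, so the label was not checked on CLN3, and spots are given by block row (R), block column (C) and position in the block.

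Cln3 is a G1 cyclin of budding yeast that promotes the start of a new cell cycle, and Whi5 is the repressor of the G1/S transcription programme that it helps to relieve. Cells without Cln3 are known to be large and cells without Whi5 to be small, and cell size also rises with ploidy. In genomic run-on, cells are permeabilised and polymerases already on a gene elongate their RNA in the presence of radioactive UTP, so the signal on a spot follows the polymerases at work over that open reading frame.

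Median run-on signal lay between 39.0 and 166 PSL/mm2 (photostimulated luminescence per area) over the 18 arrays, and 73.5% to 83.7% of spots reached an S/N of 2. With 3 arrays per strain, their number limits the precision. Separate cultures for the arrays of 1 strain are not stated in the labels, and p-values therefore reflect the spread among these arrays alone, which may be technical.

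The first question was how far cln3Δ stood from every other strain at these spots. The comparison chose the spots, so its values are a description with no test. The gap ranged between 0.60 and 4.25 on the log2 scale, with a median of 0.79 and quartiles of 0.68 and 1.26. It was under 1 at 34 of the 52 spots, at least 1 at 18, at least 2 at 8 and at least 4 at 2. Most of the selection was therefore of modest size, with a short tail of large differences. On the log2 scale cln3Δ exceeded whi5Δ by a median of 1.30, WT 2N by 1.15, WT 3N by 1.15, WT 4N by 1.09 and WT N by 0.95. The heat map of levels on all 18 arrays shows every selected spot.

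**Figure D1:**
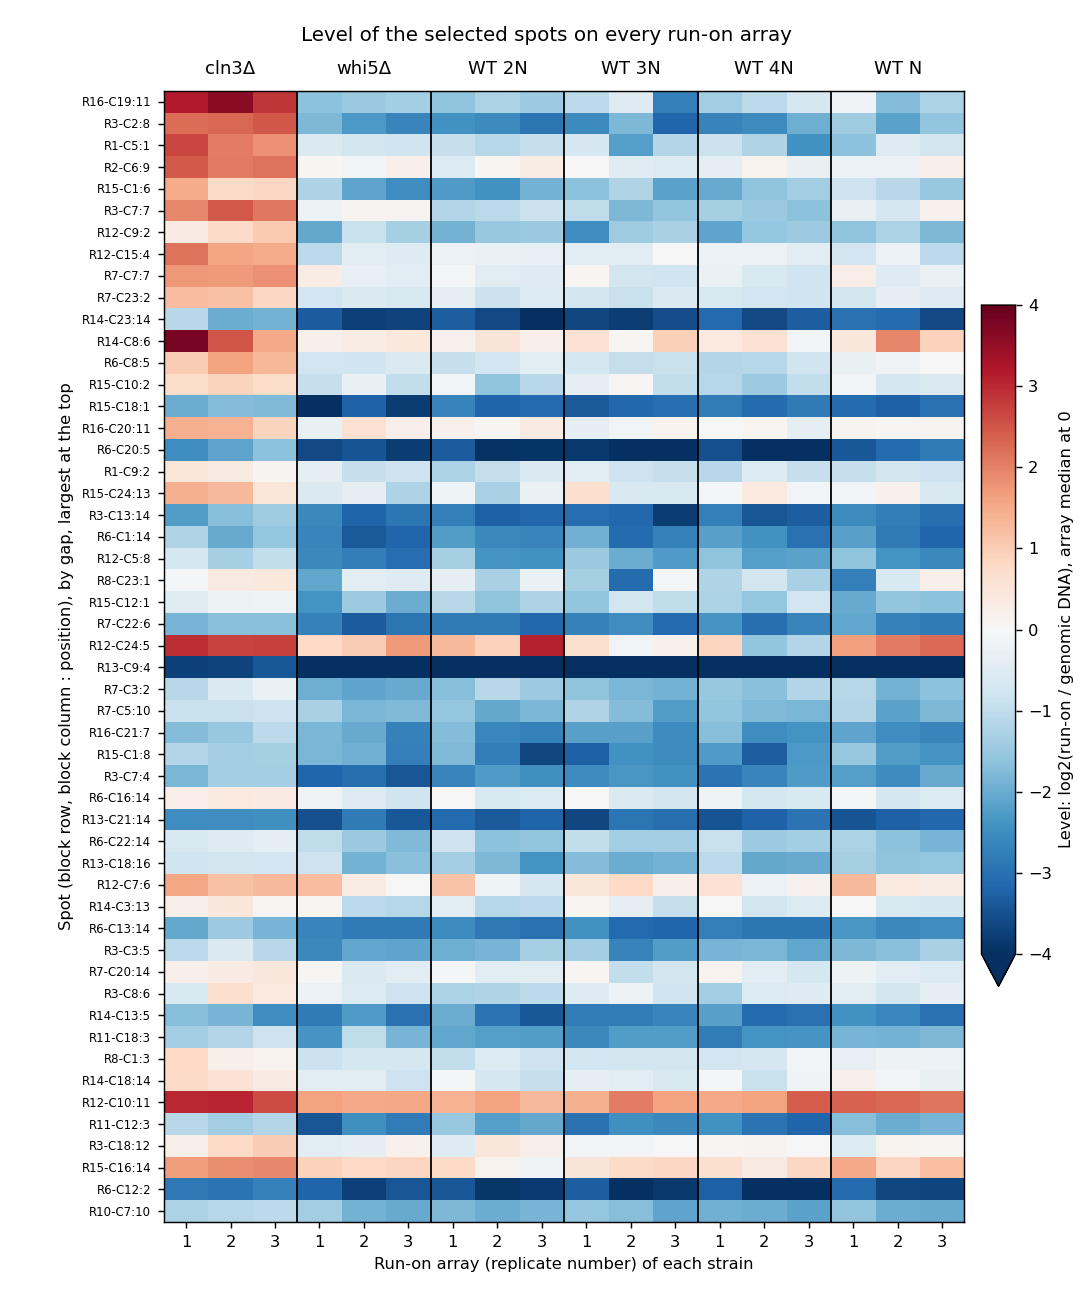
Level of the 52 selected spots (rows, largest gap at the top) on each of the 18 run-on arrays (columns, 3 replicates per strain), as log2 of run-on over genomic DNA signal with the array median at 0. Colours saturate at the ends of the scale, red marks levels above the array median, and the cln3Δ columns are on average redder or paler blue than those of each other strain in their row, also where the whole row is blue.

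The same rule set for other strains gave fewer spots. It selected 0.874% of the spots in use for cln3Δ, against 0.101% for whi5Δ (6 spots), 0% for WT 2N (0 spots), 0.0168% for WT 3N (1 spot), 0.0168% for WT 4N (1 spot) and 0.252% for WT N (15 spots). Turned round, with the mean at least 0.6 below the lowest mean of the others and S/N of at least 2 on all arrays of the others, it selected 13 spots for cln3Δ, 4 for whi5Δ, 0 for WT 2N, and 1 each for WT 3N, WT 4N and WT N. This asks for S/N of 2 on more arrays than the upward rule, so the upward and downward counts are not compared. At 40 of the 52 spots the lowest cln3Δ array lay above the highest of the 15 other arrays, which held for 1.39% of all spots in use. The rule used this contrast, so nothing is read from that count.

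The spots fall into 3 classes by where a run-on signal was found. In the first, 4 spots reached an S/N of 2 on the cln3Δ arrays and on none of the 15 others. Their gaps are lower bounds at the floor used only, since an S/N minimum of 3 gave smaller gaps at all 4. At the floor used, these spots were at least 2.83-fold to at least 19.0-fold over the nearest other strain. In the second class, 25 spots also reached it on some of the 15 other arrays and had gaps of 0.62 to 2.87 (median 0.80). In the third, 23 spots reached it on all 18 arrays and had gaps of 0.60 to 2.19 (median 0.73), which is 1.52-fold to 4.56-fold. The groups did not overlap at 3 of 4, 18 of 25 and 19 of 23 spots of these classes, against 1.39% of all spots. The rule used this contrast, so nothing is read from the counts by class.

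The largest gap was at R16-C19:11, one of the 4 spots of the first class. Its levels were 3.18, 3.61 and 2.86 on the cln3Δ arrays. With the floor applied, they were -1.63, -1.48 and -1.36 in whi5Δ, -1.61, -1.28 and -1.45 in WT 2N, -1.08, -0.51 and -2.73 in WT 3N, -1.41, -1.06 and -0.67 in WT 4N, and -0.13, -1.72 and -1.25 in WT N. The cln3Δ arrays stood far above all others with no overlap, and no other array reached an S/N of 2. Mean level was 3.22 ± 0.38 in cln3Δ and -1.03 ± 0.82 in WT N, the nearest strain (SD, n = 3 each). At the floor used, the spot was at least 19.0-fold higher in cln3Δ. It was also the spot with the highest level in cln3Δ among the 52, at percentile 99.8 of all spots in use. Before division by genomic DNA the cln3Δ signals were 278, 379 and 390 PSL/mm2 with S/N of 49.7, 34.4 and 40.9, and the highest S/N elsewhere was 0.46 in WT 4N. Genomic DNA at this spot reached an S/N of 2 on 3 of the 7 membranes, so the size of the ratio rests on a weak divisor, while the contrast in raw run-on signal does not.

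R3-C2:8 showed the same pattern with a gap of 4.04. Its levels were 2.23, 2.29 and 2.48 on the cln3Δ arrays, against -1.41, -2.15 and -1.57 on those of WT N, the nearest strain, with the floor applied. The other 12 arrays lay between -3.16 and -1.78, again without overlap. The mean was 2.33 ± 0.13 in cln3Δ and -1.71 ± 0.39 in WT N (SD, n = 3 each), at least 16.5-fold higher in cln3Δ. Raw signals in cln3Δ were 194, 189 and 335 PSL/mm2 (S/N of 16.1, 12.3 and 16.9), and 7.24 PSL/mm2 was the highest among the other 15 arrays. Genomic DNA reached an S/N of 2 on 6 of 7 membranes here. The size of both gaps depends on the floor: with an S/N minimum of 3 they were 3.67 at R16-C19:11 and 3.50 at R3-C2:8, and with no floor 6.73 and 6.41.

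The remaining spots of the first class fall outside the rule for named spots and were named after their values were seen. R15-C1:6 had levels of 1.47, 0.77 and 0.84 in cln3Δ and -0.83, -1.12 and -1.52 in WT N, at least 4.55-fold higher in cln3Δ at the floor used. Its gap of 2.19 was 1.64 with an S/N minimum of 3. R14-C8:6 had 3.80, 2.51 and 1.53 in cln3Δ and 0.44, 1.96 and 0.94 in WT N, at least 2.83-fold higher in cln3Δ, with a cln3Δ SD of 1.14. At R14-C8:6 WT N replicate 2 lay above cln3Δ replicate 3 only with the floor applied, since its raw signal was 3.73 PSL/mm2 (S/N of 0.22), against 43.7 PSL/mm2 in cln3Δ replicate 3. The gap behind that 2.83-fold was smaller, at 0.96 on the log2 scale, with an S/N minimum of 3 and at 0.91 without cln3Δ replicate 1, whose genomic DNA signal was 2.40 PSL/mm2. WT N replicate 2 was on the same membrane, 13, and so had the same low divisor. Genomic DNA was under an S/N of 2 on all 7 membranes at both of these spots. Their part in the ratio was not tested.

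Among the spots seen on all 18 arrays, R2-C6:9 had the largest gap. Its levels were 2.47, 2.09 and 2.16 in cln3Δ, against 0.07, -0.11 and 0.20 in whi5Δ, -0.56, 0.07 and 0.30 in WT 2N, 0.01, -0.49 and -0.54 in WT 3N, -0.40, 0.13 and -0.30 in WT 4N, and -0.23, -0.25 and 0.21 in WT N. All 15 other arrays gathered around the array median, and the cln3Δ arrays stood apart from them. The mean was 2.24 ± 0.20 in cln3Δ and 0.05 ± 0.15 in whi5Δ, the nearest strain (SD, n = 3 each), a 4.56-fold gap. Raw signals of 747, 1357 and 1717 PSL/mm2 in cln3Δ stood above a range of 160 to 541 PSL/mm2 elsewhere, and genomic DNA was above an S/N of 2 on all 7 membranes.

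R12-C15:4 followed with a gap of 2.02. Its levels were 2.17, 1.57 and 1.49 in cln3Δ, and -0.42, -0.41 and -0.005 in WT 3N, the nearest strain. No other array was higher than that -0.005, and the lowest was -1.09, in whi5Δ. The mean was 1.75 ± 0.37 in cln3Δ and -0.28 ± 0.24 in WT 3N (SD, n = 3 each), 4.07-fold.

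**Figure D2:**
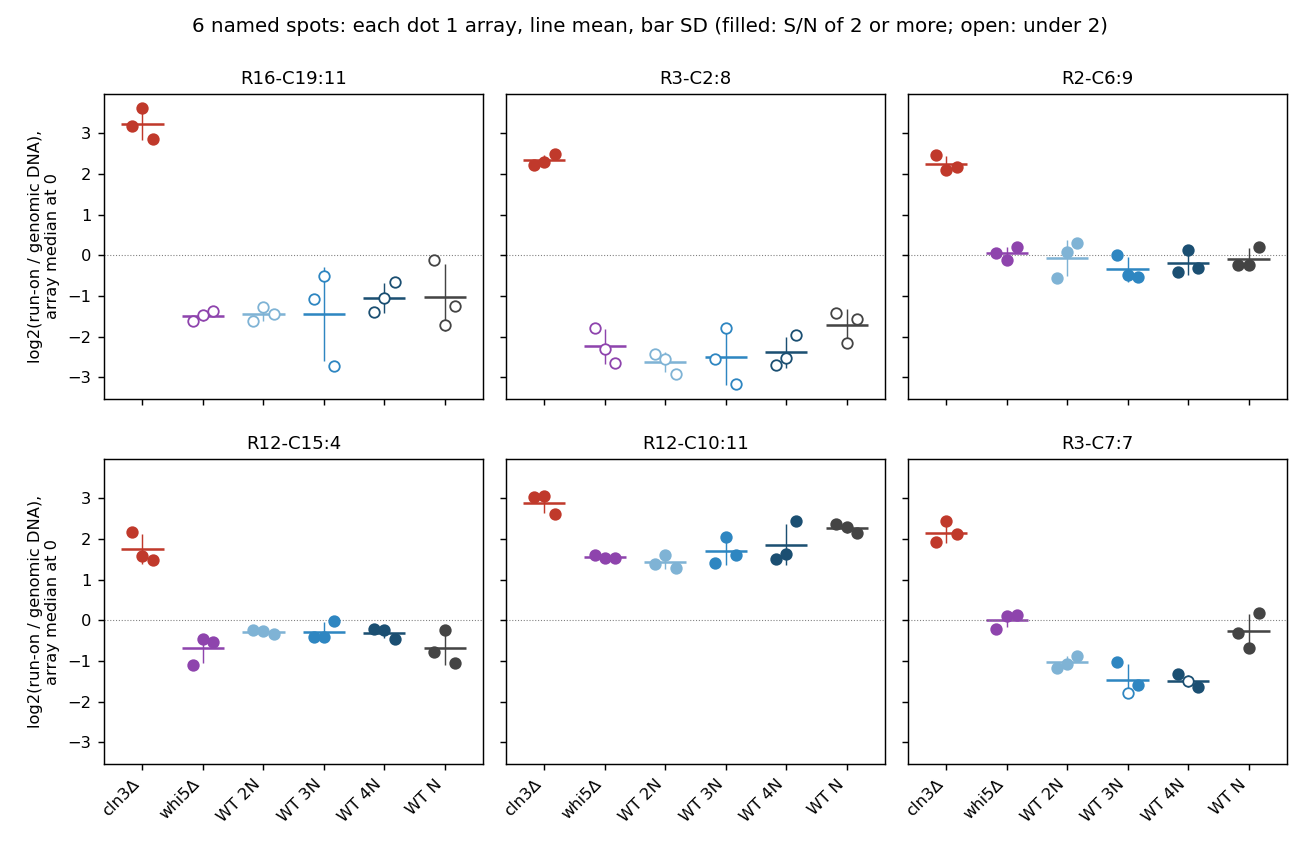
Levels at 6 named spots (log2 of run-on over genomic DNA signal, array median at 0) by strain, with each dot 1 array, the line the mean and the bar the SD (n = 3). Filled dots had S/N of at least 2: at R16-C19:11 and R3-C2:8 only the cln3Δ dots are filled, and at the other 4 spots the cln3Δ dots lie above all others although those are mostly filled too.

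Most of the selected spots were weakly transcribed in the other strains. Their median level was 0.25 in cln3Δ, against -1.45 in whi5Δ, -1.38 in WT 2N, -1.47 in WT 3N, -1.47 in WT 4N and -1.33 in WT N. Ranked among all spots in use, the median spot stood at percentile 61.7 in cln3Δ, against 8.23 in whi5Δ, 9.83 in WT 2N, 8.67 in WT 3N, 8.47 in WT 4N and 9.01 in WT N. In the lowest 10% of spots lay 15 of the 52 in cln3Δ and between 26 and 29 in each other strain. The selection favours spots that are low elsewhere, so these ranks describe it and are no separate result.

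In cln3Δ the 52 spots split into active and weak ones. Above the array median in cln3Δ but below it in all 5 other strains stood 18 spots, among them R16-C19:11, R3-C2:8, R15-C1:6 and R12-C15:4. Another 24 stayed below the median in all 6 strains, so that cln3Δ was only the least weak of them. Above it in all 6 strains were 4 spots, and 6 were above it in cln3Δ and in some of the others. The plot of percentiles by strain shows this split as an upper and a lower cloud in cln3Δ.

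**Figure D3:**
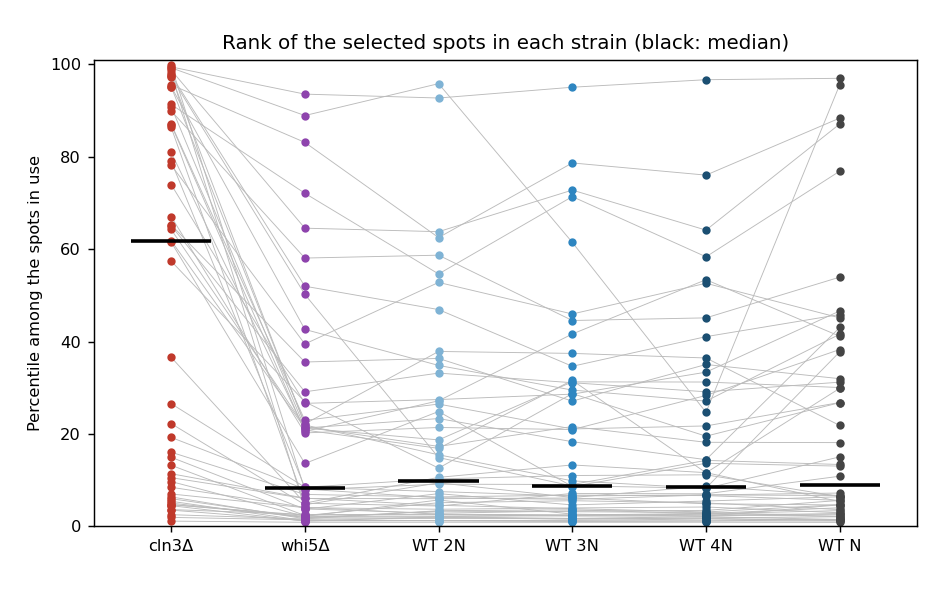
Percentile of each of the 52 spots (dots, joined by thin lines) among the 5953 spots in use, by mean level in each strain. The black median line is at 61.7 in cln3Δ and between 8.23 and 9.83 in the other strains, and 15 spots remain in the lowest 10% in cln3Δ.

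R12-C10:11 had the highest cln3Δ level after R16-C19:11 and was strong in every strain. Its levels were 3.02, 3.06 and 2.61 in cln3Δ, and 2.37, 2.28 and 2.15 in WT N. The other 12 arrays lay between 1.29 and 2.43, the highest being WT 4N replicate 3, so the groups stood close without overlap. The mean was 2.90 ± 0.25 in cln3Δ and 2.27 ± 0.11 in WT N (SD, n = 3 each), a gap of 0.63 or 1.55-fold.

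R12-C24:5, named after its values were seen, was the spot of the 52 whose level varied most among the other strains. Its mean was 2.79 ± 0.13 in cln3Δ, 1.16 ± 0.47 in whi5Δ, 1.77 ± 1.14 in WT 2N, 0.24 ± 0.39 in WT 3N, -0.63 ± 1.30 in WT 4N and 1.99 ± 0.31 in WT N (SD, n = 3 each). One array decided the overlap: WT 2N replicate 3, at 3.07, lay above the 2.94, 2.70 and 2.72 of cln3Δ, while the other arrays of that strain were at 1.30 and 0.93.

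At the threshold, the gap was 0.602 at R10-C7:10 and 0.612 at R6-C12:2, just inside, and 0.600 at R3-C14:4 and 0.594 at R3-C18:2, just outside. At R10-C7:10 the levels were -1.28, -1.15 and -1.06 in cln3Δ and -1.38, -1.91 and -2.01 in whi5Δ, the nearest strain, close but without overlap. R6-C12:2 was among the weakest, at -2.84 ± 0.12 in cln3Δ and -3.45 ± 0.26 in whi5Δ (SD, n = 3 each). The spots inside and outside the threshold thus differ by very little. Another 13 spots reached a gap of 0.6 but had S/N under 2 on at least 1 cln3Δ array.

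The SD of the 3 cln3Δ arrays had a median of 0.25 at the 52 spots and 0.26 over all spots in use. In the other strains the median SD was 0.33 at the 52 spots and 0.27 over all spots for whi5Δ, 0.27 and 0.26 for WT 2N, 0.33 and 0.32 for WT 3N, 0.32 and 0.27 for WT 4N, and 0.29 and 0.27 for WT N. The cln3Δ SD exceeded the gap at 1 spot, R3-C8:6, also named after its values were seen, where cln3Δ gave -0.63, 0.69 and 0.38. That spot's replicate 1 lay below 8 of the 15 other arrays. The gap exceeded the whole range of the 5 other strain means at 44 of the 52 spots. The rule asked for a gap of at least 0.6, so nothing is read from that count. Over the 52 spots that range had a median of 0.54, against 0.39 over all spots. Replicate 1 of cln3Δ was the lowest of the 3 at 25 spots and the highest at 19, and replicates 2 and 3 were the highest at 13 and 20. With each of the 3 cln3Δ arrays left out in turn, 34 of the 52 spots met the rule all 3 times.

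Some membranes carried both cln3Δ and another strain, and there both levels share a genomic DNA divisor. On membrane 13 cln3Δ exceeded WT N at all 52 spots, with a median difference of 0.95, and by at least 0.6 at 45 (8.08% of all spots in use). On membrane 14 it again exceeded WT N at all 52, with a median of 1.11, and by at least 0.6 at 48 (3.46% of all spots). The strain means include these same arrays, so nothing is read from a likeness in size to the differences between strain means. Against WT 3N on membrane 13 the median was 1.34 and the difference was at least 0.6 at 46 spots (16.2% of all spots). Against whi5Δ on membrane 15 the median was 1.26, with 51 spots above 0, 41 at 0.6 or more (9.04% of all spots) and 1 at -0.01. These arrays were also used by the rule, so the counts are descriptions.

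**Figure D4:**
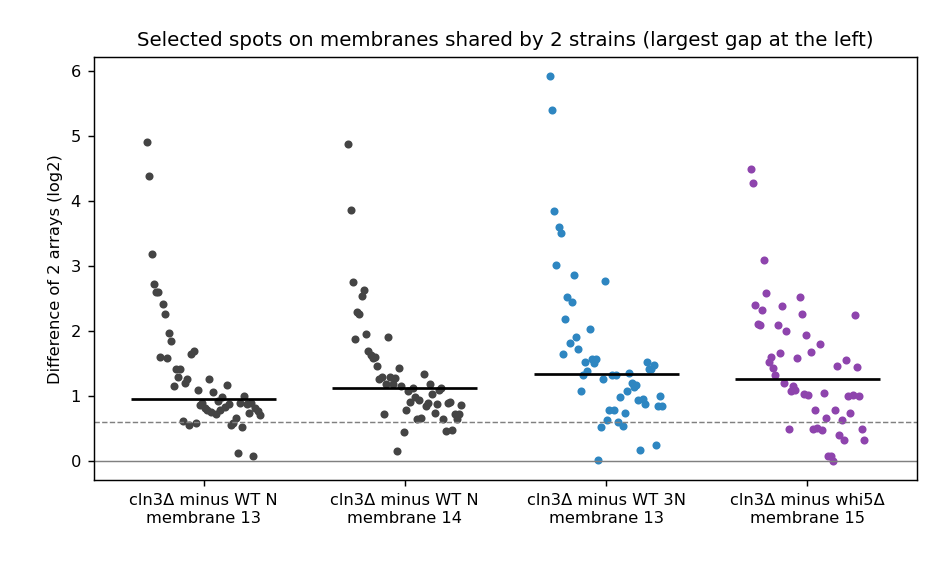
Difference in level (log2) between the cln3Δ array and the array of another strain on the same membrane, for the 52 spots in order of gap, with a black median line and a dashed line at 0.6. The medians are 0.95, 1.11, 1.34 and 1.26, and 1 spot of the last pair lies just under 0.

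The rule used the genomic DNA signal as the divisor and also required it to be above 0 on all 7 membranes. Its part in the gaps was not tested. At the 52 spots, genomic DNA on membranes 13, 14 and 15 less that on the other 4 membranes, as log2 signal with each membrane's median at 0, had a median of 0.003 and a range of -0.68 to 0.64. It was below 0 at 26 of the 52 spots, against 51.2% of all spots in use. Genomic DNA reached an S/N of 2 on all 7 membranes at 25 of the 52 spots, against 34.7% of all spots, and on none at 3. By class it did so at 0 of 4, 10 of 25 and 15 of 23 spots.

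The pixel SD within a spot, divided by its density, had a median of 0.382 on the cln3Δ arrays at the 52 spots and 0.398 over all spots. On the other arrays it was 0.389 at the 52 spots and 0.427 over all spots. Above 0.644, the 95th percentile over all spots on the cln3Δ arrays, lay 6 of the 52 (11.5%), including R16-C19:11 (0.665), R14-C8:6 (0.682) and R15-C1:6 (1.14). Those 3 are among the 4 spots seen on cln3Δ arrays alone, and the part of unevenness in their values was not tested.

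On the membrane the spots were spread over 13 of 16 block rows, 20 of 24 block columns and 15 of 16 positions. Rows 1 to 8 held 25 and rows 9 to 16 held 27. Over all spots, the median difference of cln3Δ from the mean of the other strains shifted with the row. It was below 0 in rows 1 to 9 (lowest -0.10, row 7) and above 0 in rows 10 to 16 (highest 0.12, row 13). The part of this shift in the gaps was not tested. Position 14 held more than any other, 10 of its 376 spots in use (2.66%), while the other positions held 0 to 6. The 10 had gaps of 0.62 to 1.56 (median 0.72), 7 were seen on all 18 arrays and 4 lay in row 6. Over all spots at position 14, the median difference of cln3Δ from the mean of the other strains was 0.04.

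Among the 52, 3 pairs touched on the membrane, with the 16 positions of a block taken as 4 rows of 4 in the order of the files. R3-C2:8 touched R3-C3:5, R3-C7:7 touched R3-C7:4, and R15-C18:1 touched R14-C18:14. The first 2 of these pairs joined a spot of large gap (4.04 and 2.15) to one of small gap (0.67 and 0.73). Around all 52 spots lay 375 touching spots outside the selection, with a median gap of -0.17 against -0.20 over all spots, and 0 of them had a gap of 0.6. Whether signal from a strong neighbour entered those pairs was not tested.

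The rule set no condition on differences among the other 5 strains, but it used the highest of their means on the same 15 arrays, so the tests among them are not independent of the selection. They were fitted and adjusted over all spots, and counts over the 52 are descriptions. Among the 52 spots, 1 differed over the 5 strains (moderated F test in limma, adjusted p under 0.05), against 1.09% of all spots in use. That spot was R3-C7:7 (adjusted p = 0.0051). At an unadjusted p under 0.05 the numbers were 10 of 52 and 6.92% of all spots.

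The second question was whether polyploid wild types differed from the haploid at these spots. The mean of WT 2N, WT 3N and WT 4N was lower than WT N at 2 of the 52 spots and higher at 0 (limma, adjusted p under 0.05), against 1.23% of all spots lower and 0.101% higher. Unadjusted p was under 0.05 at 14 of the 52, 13 of them lower, and at 11.9% of all spots. The polyploid mean minus WT N had a median of -0.27 over the 52 spots, against -0.02 over all spots, with a median SE of 0.22. It was below 0 at 41 of 52 spots, against 52.9% of all spots. All 3 polyploids lay below WT N at 30 spots, against 36.5% of all spots, and all 3 above it at 9, against 30.4%. No p is given for these counts over the list, and WT N was under an S/N of 2 on all 3 arrays at 11 of the 52 spots, where its level is set by the floor or lies below that S/N.

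R3-C7:7 was one of the 2 called spots. Its levels were -1.17, -1.06 and -0.87 in WT 2N, -1.02, -1.80 and -1.58 in WT 3N, -1.33, -1.50 and -1.63 in WT 4N, and -0.30, -0.67 and 0.18 in WT N. Every polyploid array lay below every haploid array. The polyploid mean was -1.33 against -0.27 in WT N, a difference of -1.06 (SE 0.20, limma adjusted p = 0.011). Separately, the difference was -1.20 for WT 3N (adjusted p = 0.030) and -1.22 for WT 4N (adjusted p = 0.025), while that of -0.77 for WT 2N did not pass. In cln3Δ this spot read 1.92, 2.44 and 2.11 and in whi5Δ -0.20, 0.11 and 0.12, so the 6 strains covered a wide range with cln3Δ at the top and polyploids at the bottom.

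R6-C8:5, named after its values were seen because the count is small, was the other. Its levels were -0.93, -0.76 and -0.44 in WT 2N, -0.72, -0.96 and -0.90 in WT 3N, -1.17, -1.14 and -0.80 in WT 4N, and -0.30, -0.15 and 0.01 in WT N. Again no polyploid array reached the haploid ones, and the difference was -0.72 (SE 0.15, adjusted p = 0.021). In cln3Δ it read 1.01, 1.60 and 1.32. In whi5Δ it read -0.77, -0.80 and -0.58, also below every haploid array, with a difference of -0.57 from WT N (SE 0.18, adjusted p = 1). The call on R3-C7:7 was lost without WT N replicate 3 (difference -0.84, adjusted p = 0.11). That on R6-C8:5 was lost without WT N replicate 2 (-0.72, adjusted p = 0.11), without WT N replicate 3 (-0.64, adjusted p = 0.17), without division by genomic DNA (-0.79, adjusted p = 0.12) and with membrane as a block over all 18 arrays (-0.61, adjusted p = 0.23).

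On membranes shared by polyploids and haploid the direction at both spots was already fixed, since no polyploid array reached a haploid one. Only the sizes of these differences are described. On membrane 12, R3-C7:7 differed from WT N by -1.50 in WT 3N and by -1.33 in WT 4N, and on membrane 13 by -0.91 in WT 3N. For R6-C8:5 the differences on these membranes were -0.66, -0.50 and -0.75 in the same order. Over the 52 spots the medians were -0.38, -0.53 and -0.25, against -0.09, -0.08 and 0.003 over all spots. Below 0 lay 43, 40 and 41 of the 52, against 56.2%, 55.3% and 49.7% of all spots. Without division by genomic DNA the median of the polyploid mean minus WT N was -0.26, and 39 of 52 spots were below 0, against 54.6% of all spots.

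Each polyploid was also set against the same 3 haploid arrays. WT 2N was lower at 0 of the 52 spots (0.689% of all spots), WT 3N at 1 (0.638%) and WT 4N at 2 (0.907%), all by limma at an adjusted p under 0.05. An unadjusted p under 0.05 was found at 10 of the 52 for WT 2N (all lower, 7.78% of all spots), 9 for WT 3N (8 lower, 8.67%) and 8 for WT 4N (all lower, 8.80%). The medians were -0.19 for WT 2N, -0.22 for WT 3N and -0.19 for WT 4N, which do not follow the order of ploidy. The 3 comparisons share the WT N arrays.

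WT N was the highest of the 5 other strains at 22 of the 52 spots, against 27.1% of all spots, whi5Δ at 12 (21.0%), WT 3N at 7 (19.5%), WT 2N at 6 (18.1%) and WT 4N at 5 (14.2%). WT N shared 2 membranes with cln3Δ, while WT 3N and whi5Δ shared 1 each and WT 2N and WT 4N none. The part of shared membranes in this order was not tested.

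No polyploid rise passed the test. The smallest p upward was at R15-C12:1, where WT N was under an S/N of 2 on all 3 arrays. The polyploid mean was -1.21 and WT N was -1.74 with the floor applied, so the polyploids were at least 1.45-fold higher (limma adjusted p = 0.39). Its levels in cln3Δ were -0.50, -0.20 and -0.16, above all 15 other arrays, of which the highest was -0.72 in WT 3N.

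The last question was whether the other deletion strain, whi5Δ, differed from WT N at these spots. None of the 52 was lower or higher in whi5Δ at an adjusted p under 0.05 (limma), against 0.0336% of all spots lower and 0% higher. At an unadjusted p under 0.05 there were 10 of the 52, all lower, against 3.19% of all spots. The difference of whi5Δ minus WT N had a median of -0.14 over the 52 spots, with a range of -1.04 to 0.28, against -0.01 over all spots. It was below 0 at 34 of 52, against 52.4% of all spots. With a median SE of 0.27 at these spots, small differences could not be detected. No membrane carried both strains, and whi5Δ was under an S/N of 2 on all 3 arrays at 10 of the 52 spots.

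R3-C7:4 had the smallest p for a lower level in whi5Δ. Its levels were -3.16, -3.03 and -3.42 in whi5Δ and -2.19, -2.53 and -2.00 in WT N, without overlap between them. S/N was under 2 on all 3 whi5Δ arrays. At the floor used, the level was at least 1.95-fold lower in whi5Δ. Its limma adjusted p of 0.45 does not pass over all spots, so no difference is called. In cln3Δ the same spot read -1.82, -1.37 and -1.36. The smallest p upward was at R3-C7:7, with a difference of 0.28 (SE 0.24, adjusted p = 1).

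**Figure D5:**
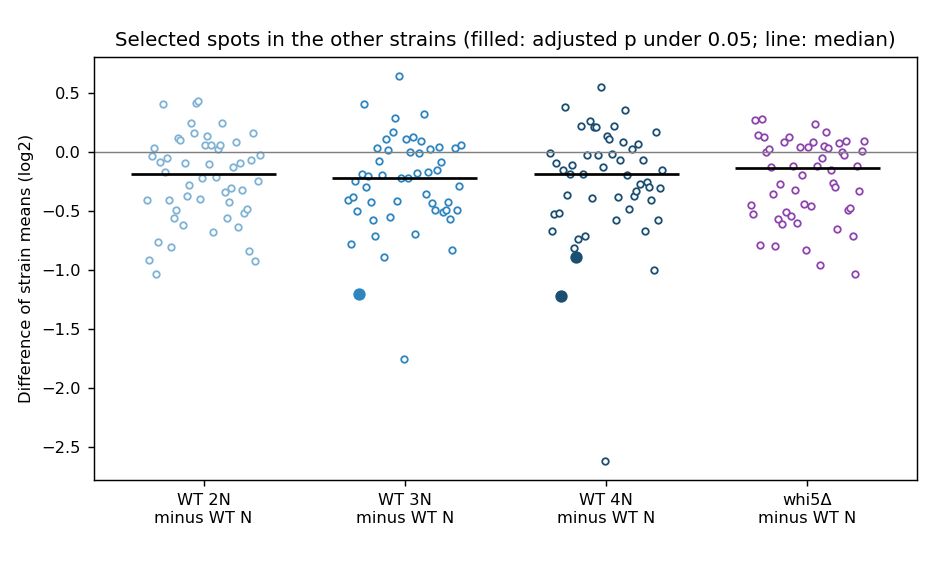
Difference in mean level (log2) of WT 2N, WT 3N, WT 4N and whi5Δ from WT N at the 52 spots, in order of gap, with a black median line and filled dots for an adjusted p under 0.05 in limma. The medians are -0.19, -0.22, -0.19 and -0.14, the filled dots are R3-C7:7 in WT 3N and WT 4N and R6-C8:5 in WT 4N, and the lowest dots in WT 3N and WT 4N are R12-C24:5, which did not pass.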

How the data were processed

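Nascent transcription was measured by genomic run-on in 6 strains, 3 macroarrays each, with genomic DNA hybridised to the same membranes (numbers 12 to 18). Per the file headers, the deposited density and background-subtracted density are intensity values per area (PSL/mm2), and the deposited S/N is a score of signal over background. The deposited subtracted intensity equals density less background, with negative results at 0, as checked to 0.005 on the values. The program that read the images is not named by any source used here, and the authors' later normalisation by median absolute deviation, named in the design text, is not in these values. The 18 genomic DNA files are copies of 7 hybridisations.

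Strain was taken from sample titles, and replicate number and membrane from the array names. Levels were formed as in the selection rule, with no scaling of spread. Strain means over the 15 arrays without cln3Δ were fitted at all 5953 spots (lmFit and eBayes of limma 3.58.1, run in R 4.3.3), with Benjamini-Hochberg adjustment over all spots and a threshold of 0.05. The fit was tested on simulated data. The simulated arrays held independent noise with no replicate or membrane effect, so that test does not cover such effects. Where a strain had S/N under 2 on all 3 arrays, its fold difference is given as a bound at the floor used. Another floor can give a smaller one. Levels, gaps and p-values at such spots come from floored signals. Python 3.11.15 was used for selection and counts.

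The spots, the lists and the S/N minimum of 2 were chosen with earlier results of these data known. Named spots are at most 2 of each kind: largest gap, largest gap with S/N of 2 on all 18 arrays, highest level in cln3Δ, nearest the threshold on either side, and the smallest p in each direction against WT N. Lists of G1/S, osmotic stress and marker genes were not used, since no file ties a spot to a gene.

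Arrays with the same replicate number deviated together from their strain means in whi5Δ and WT N (r of 0.48, 0.18 and 0.31 for the 3 numbers), where the number was taken to pair the arrays. In each polyploid against WT N at least 1 correlation was under 0.1. They were 0.375, 0.099 and 0.319 for WT 2N, 0.237, -0.338 and 0.210 for WT 3N, and 0.173, 0.190 and -0.081 for WT 4N. The main fit did not pair arrays by replicate number. Alternatives were run-on signal without genomic DNA, density before background correction, other floors, scalings and S/N limits, replicate and membrane blocks, and leaving out each array.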

Additional observations from a re-analysis of the deposited data

How the results depend on the processing

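The number of spots selected, 52, was 26 with density not corrected for background (all 26 shared) and 25 where genomic DNA had to reach an S/N of 2 on all 7 membranes. It lay between 40 and 56 under the other processing alternatives and between 44 and 63 with 1 array left out (63 without cln3Δ replicate 1, of which 46 were shared). With each of the 18 arrays left out in turn, 26 spots were selected every time. With uncorrected density the gap at the 52 spots had a median of 0.60, and without genomic DNA a median of 0.80, above 0 at all 52 in both. Over 12 named spots and 26 settings, 288 of 312 gaps moved by less than 1 SD of that spot's cln3Δ arrays. Another 24 moved by more and 0 changed sign. Leaving out an array of a strain other than cln3Δ and the nearest mostly leaves the gap unchanged, and the genomic DNA condition always does. Little is therefore read from these counts.

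Among the other 5 strains the 1 called spot became 3 without genomic DNA division (1.01% of all spots). It became 2 with replicate number as a block (1.48%). With membrane as a fixed block it became 13 of the 52, but 12.4% of all spots were then called. With replicate and membrane blocks together over all 18 arrays it became 10 (7.91% of all spots). Leaving out 1 array gave 1 to 2 (2 without WT 4N replicate 1, with 0.991% of all spots). The 2 spots called for the polyploid mean against WT N became 1 without genomic DNA (1.13% of all spots). They became 28 with membrane as a block (31.1%) and 6 with both blocks (9.02%). Leaving out 1 array gave 0 to 4. There were 0 without WT N replicate 3 (0.689% of all spots) and 1 without WT N replicate 2 (0.773%). There were 4 without WT 2N replicate 1 (1.38%) or WT 4N replicate 1 (1.36%). For whi5Δ against WT N the 0 called became 1 without genomic DNA (0.084% of all spots), 26 with membrane as a block (30.6%) and 2 with both blocks (0.168%). With replicate number as a block it stayed at 0. Membrane alone as a block over all 18 arrays gave 1, 2 and 0 in these comparisons (0.622%, 0.874% and 0.0168% of all spots). Of its 2 polyploid calls, 1 was shared with the main fit. Both fits with a membrane block over 18 arrays were chosen after seeing the data. The cause of these changes was not tested. Arrays of 3 per strain and S/N under 2 on some array at 29 of the 52 spots limit what could be detected.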
